A study of Mus musculus with 4 samples.

Results

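The aminoacyl-tRNA synthetases were examined in mouse neural stem cells with and without Opa1, a GTPase that fuses inner mitochondrial membranes and keeps cristae in form. The set was chosen by gene symbol: 20 cytosolic synthetase genes and the tRNA export factor Xpot (21 genes, called cytosolic below), and 16 mitochondrial synthetase genes whose symbols end in 2. All 37 were found among the 55421 gene identifiers of the deposited table, and all 37 passed the filter on low values that left 18547 genes for testing. Bulk RNA-seq libraries came from YFP-positive cells sorted from the subventricular zone, with 2 WT and 2 Opa1 KO libraries. The WT mice carried Nestin-CreERT2 and a Rosa26 stop-YFP reporter, and the Opa1 KO mice carried the same alleles with Opa1 flox/flox. Both groups received tamoxifen at 6 to 10 weeks of age on a C57BL/6 background, and the methods place tissue collection 30 days later, while the discussion of the same sorted cells gives an earlier day. Nestin drives the Cre, so the sort holds stem cells, the progeny that keep YFP and other cells in which the reporter was switched on. Nothing in the labels ties a library to its own animal, and the p-values below therefore reflect the spread among 4 samples, part of which may be technical.

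Each aminoacyl-tRNA synthetase joins 1 amino acid to the tRNAs that carry it, and protein synthesis in the cytosol and in mitochondria depends on this step. Most mitochondrial enzymes are encoded by their own nuclear genes and are imported after translation, while Gars and Kars each make enzymes for both compartments. The transcription factor ATF4, which acts in the integrated stress response when translation initiation is slowed, is known to bind and activate many of the cytosolic synthetase genes together with Asns (asparagine synthetase), Ddit3 (a stress-responsive transcription factor) and Trib3 (a pseudokinase).

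Recovered totals ranged from 19985853 to 23237326 reads assigned to genes per library. Values below are read counts divided by 1 size factor per library, as deposited, and log2 fold changes compare Opa1 KO with WT after log2(value + 1), from limma-trend over all 18547 genes. Opa1 itself was at 3039 and 2833 in the WT libraries and at 837 and 739 in the Opa1 KO libraries (log2 fold change -1.90, SE 0.13). With no term other than genotype, 0 genes passed an adjusted p of 0.05 by limma-trend (0% higher and 0% lower), while an unadjusted p under 0.05 was reached by 2.53% in the higher and by 1.06% in the lower direction. Opa1 too missed that threshold, at an unadjusted p of 6.95e-05 and an adjusted p of 0.998, and it was called by DESeq2 on the recovered reads (adjusted p = 1.71e-25). DESeq2 called 0.259% of the same genes higher and 0.0863% lower. Sorted cells held markers of several lineages, and these moved between the groups and between the replicates of a group. All 7 neuroblast markers were lower in both Opa1 KO libraries than in both WT libraries, as were 15.7% of all genes tested. The median log2 fold change of these 7 was -0.43, with sums of 123193 and 101685 in WT against 93037 and 74551 in Opa1 KO. All 5 oligodendrocyte markers were higher in both Opa1 KO libraries than in both WT libraries (median 0.99), as were 15.2% of all genes tested. The sums of these 5 were 36294 and 16497 against 48808 and 47610. Of 7 stem cell and astrocyte markers 6 were higher (median 0.47), with sums of 85296 and 83020 against 115937 and 120936. Slc1a3, Slc1a2 and Aldoc made up most of these sums. Sox2 had a log2 fold change of -0.02, and the groups overlapped for Sox2, Gfap and Hopx. The pericyte and smooth muscle markers had sums of 3306 and 4598 against 6678 and 8852, the endothelial markers 1013 and 1551 against 1304 and 3355, and the microglia markers 2148 and 725 against 2392 and 1260. DESeq2 called 3 of the stem cell and astrocyte markers (Slc1a3, Slc1a2 and Aldoc) and 4 of the pericyte markers higher, and limma-trend none of these lists. For cycling markers the sums were 47531 and 30709 against 37510 and 21246, and for ependymal markers 4687 and 29429 against 7169 and 26880. In bulk samples, fewer cells of a type and less RNA per cell cannot be told apart, and the part of these shifts in the synthetase values was not tested.

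The cytosolic genes had a higher level in Opa1 KO more often than not and the mitochondrial genes were divided, but none of the 37 genes was called by limma-trend, DESeq2 or edgeR. Of the 21 cytosolic genes, 14 had a higher mean log2 level in Opa1 KO and 7 a lower one, against 49% and 51% of all genes tested. Their median log2 fold change was 0.15, compared with -0.01 over all genes, with a range from -0.21 for Kars to 0.43 for Yars. In 7 of the 21 both Opa1 KO libraries lay above both WT libraries, in 1 both lay below, and in 13 the groups overlapped. Over all genes the first 2 shares were 15.2% and 15.7%. Of the 16 mitochondrial genes, 9 were higher and 7 lower, with a median of 0.05, 3 above, 3 below and 10 overlapping. The cytosolic median exceeded the mitochondrial median by 0.10, a difference that ran from 0.02 without WT replicate 2 to 0.25 without WT replicate 1. Without WT replicate 1, WT replicate 2, Opa1 KO replicate 1 and Opa1 KO replicate 2 in turn, the cytosolic median was 0.26, 0.03, 0.04 and 0.30 and the mitochondrial median 0.01, 0.01, -0.01 and 0.14. At an unadjusted p under 0.05 by limma-trend there were 2 genes, Xpot and Cars, both higher, and the smallest adjusted p of any member was 0.998. With DESeq2 on the same genes the smallest adjusted p was 0.687, for Cars, and DESeq2 and edgeR each had 2 of the 37 under 0.05 unadjusted. Over all genes these shares were 2.39% higher and 1.01% lower with DESeq2, and 2.69% and 1.13% with edgeR (TMM). DESeq2 without the filter on low values had 5 cytosolic and 0 mitochondrial members under 0.05 unadjusted, 0 of them lower, against 2.42% and 1.56% of all genes. The smallest adjusted p of a member was then 0.119, for Xpot.

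**Figure D1:**
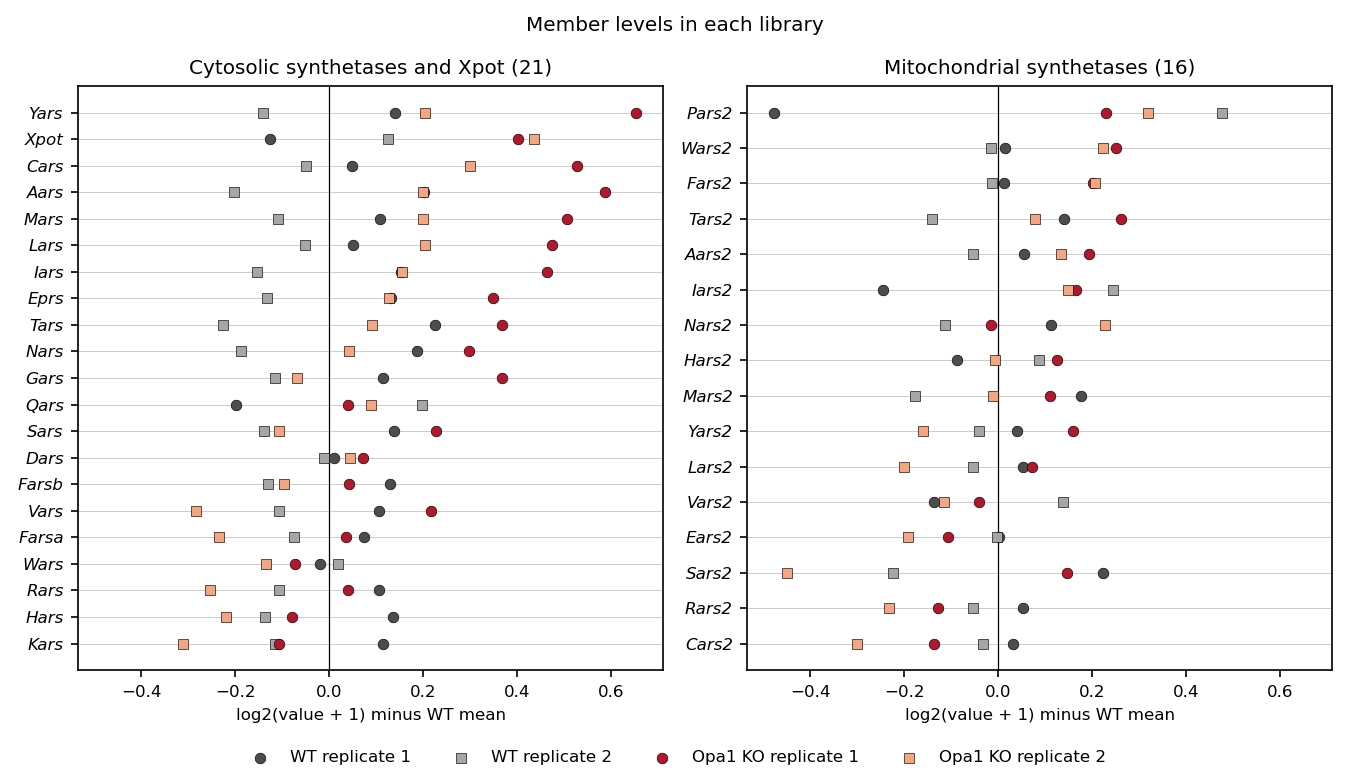
Level of each member in each library, as log2(value + 1) minus the mean of the 2 WT libraries; circles are replicate 1, squares replicate 2, grey WT and red Opa1 KO. Genes are ordered by log2 fold change, from -0.21 for Kars to 0.43 for Yars in the cytosolic panel, and in most cytosolic rows replicate 1 of a genotype lies to the right of replicate 2.

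Among the cytosolic genes, Xpot and Cars had the smallest p-values. Xpot (ENSMUSG00000034667, mm10 chromosome 10, 121587380 to 121626332, minus strand), the nuclear exporter of mature tRNAs, was at 2079 and 2472 in WT replicates 1 and 2 and at 2997 and 3070 in Opa1 KO replicates 1 and 2. Both Opa1 KO libraries lay above both WT libraries, and the group means were 2275 ± 278 (SD, n = 2) and 3034 ± 51.6 (SD, n = 2). The log2 fold change was 0.42 (SE 0.14, 95% interval 0.05 to 0.79), with an unadjusted p of 0.0337 and an adjusted p of 0.998 by limma-trend. Cars (ENSMUSG00000010755, mm10 chromosome 7, 143557230 to 143600090, minus strand), the cysteine enzyme, was at 2054 and 1917 in WT and at 2861 and 2442 in Opa1 KO. The groups did not overlap, and the log2 fold change was 0.41 (SE 0.14, 95% interval 0.05 to 0.78, unadjusted p = 0.0350 and adjusted p = 0.998 by limma-trend). These were the only intervals among the 37 that left out 0.

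Of the 5 cytosolic genes that followed in order of p, 4 had both Opa1 KO libraries above both WT libraries. Over all genes tested 15.2% were above and 15.7% below. Taking genes in order of p favours groups that separate, so this count says nothing further about the members. Lars, the leucine enzyme, was at 2424 and 2258 in WT and at 3251 and 2697 in Opa1 KO (SE 0.15 around a log2 fold change of 0.34). Mars, the methionine enzyme, was at 2616 and 2248 against 3446 and 2787 (0.35, SE 0.17). In Yars, the tyrosine enzyme, the values were 2530 and 2081 against 3611 and 2643, which gave the largest log2 fold change of the 37 (0.43, SE 0.21). All 3 genes had Opa1 KO replicate 1 as the highest library and WT replicate 2 as the lowest. Aars, the alanine enzyme, was at 3977 and 3007 in WT and at 5199 and 3975 in Opa1 KO, so that Opa1 KO replicate 2 lay just under WT replicate 1 (0.39, SE 0.22). Iars, the isoleucine enzyme, was at 3692 and 2987 against 4582 and 3698, and here the same pair of libraries was separated by a few units (0.31, SE 0.18). The unadjusted p of these 5 genes ran from 0.0742 for Lars to 0.158 for Iars by limma-trend.

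The remaining genes with values singled out include the enzymes that serve more than 1 tRNA family or compartment. Eprs, which charges both glutamate and proline tRNAs, was at 6944 and 5776 in WT and at 8071 and 6916 in Opa1 KO (log2 fold change 0.24, SE 0.16). Tars, the threonine enzyme, was at 2654 and 1942 against 2931 and 2419 (0.23, SE 0.21), and in both genes the groups overlapped. Gars, the glycine enzyme of both compartments, was at 3852 and 3286 against 4589 and 3393 (0.15, SE 0.20), and without Opa1 KO replicate 1 its log2 fold change was -0.07. Kars, the lysine enzyme of both compartments, lay in the other direction, at 2397 and 2044 in WT and 2057 and 1784 in Opa1 KO (-0.21, SE 0.15). Neither dual enzyme had groups that were apart. The other 10 cytosolic genes had log2 fold changes from -0.15 for Hars to 0.17 for Nars. In 2 of these 10 the groups did not overlap. Wars, the tryptophan enzyme, was lower (2366 and 2431 against 2281 and 2186, log2 fold change -0.10, SE 0.11). Dars, the aspartate enzyme, was higher (3777 and 3725 against 3946 and 3867, 0.06, SE 0.11). Such separation was not particular to them, as 15.2% of all genes tested were above and 15.7% below in this way.

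**Figure D2:**
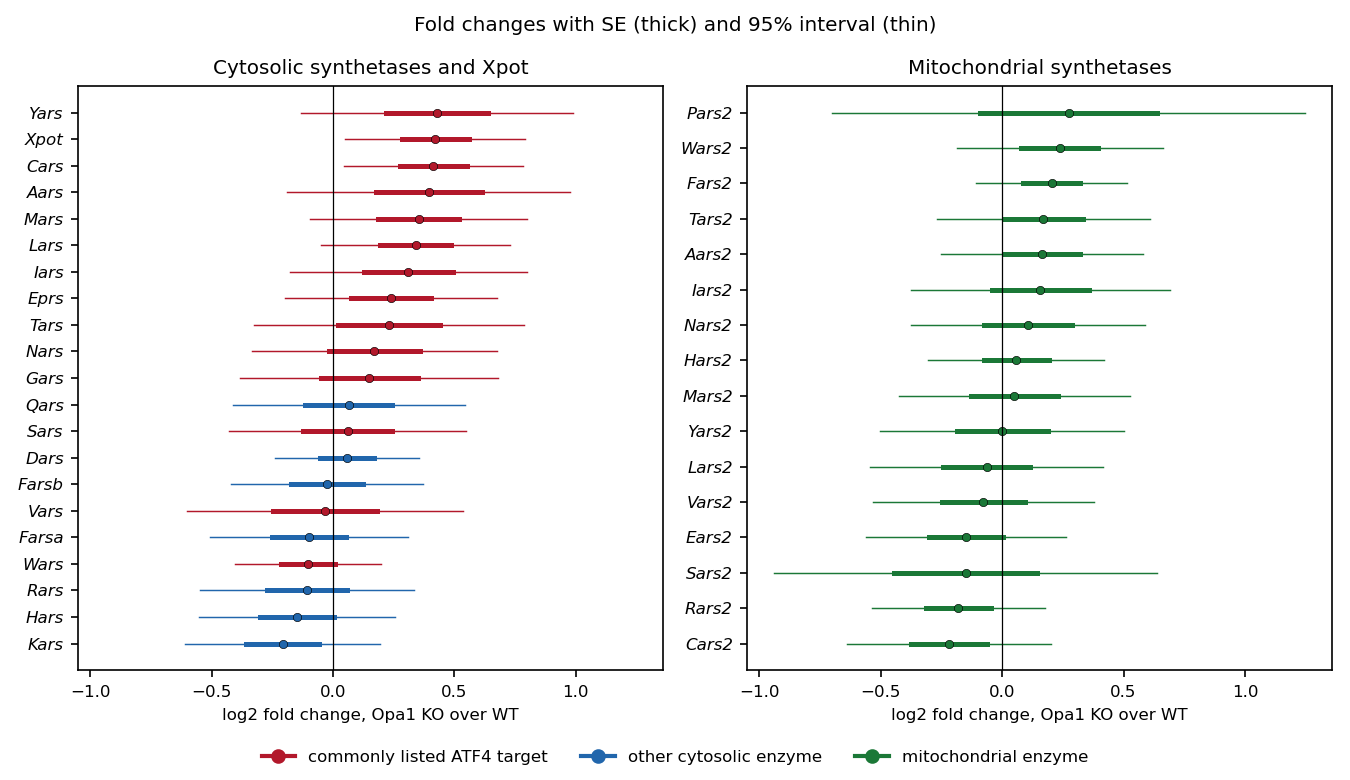
Log2 fold change of each member (point) with its SE (thick line) and 95% interval (thin line) from limma-trend; red marks enzymes commonly listed as ATF4 targets, blue the other cytosolic enzymes and green the mitochondrial ones. The intervals of Xpot and Cars lie above 0, and those of the other 35 genes include 0.

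The cytosolic genes were also grouped by whether they are commonly listed as ATF4 targets. Among the 14 listed genes (Aars, Cars, Eprs, Gars, Iars, Lars, Mars, Nars, Sars, Tars, Vars, Wars, Yars and Xpot), 12 were higher in Opa1 KO and 2, Vars and Wars, were lower, with a median log2 fold change of 0.27. Among the 7 others (Dars, Farsa, Farsb, Hars, Kars, Qars and Rars), 2 were higher and 5 lower, with a median of -0.10. The median of the 14 ran from 0.13 without WT replicate 2 to 0.39 without Opa1 KO replicate 2, and that of the 7 from -0.22 without Opa1 KO replicate 1 to 0.04 without Opa1 KO replicate 2. Both Opa1 KO libraries were above both WT libraries in 6 of the 14 and in 1 of the 7, against 15.2% of all genes. The summed value of the 14 was 47756 and 40602 in WT and 57337 and 46903 in Opa1 KO, so these sums overlapped between the groups, as did those of the 7 others, at 14751 and 13512 against 14205 and 12944. Compared within a replicate number, 12 of the 14 were higher in both comparisons and 1 was lower in both, against 29.3% and 33.1% of all genes, and the numbers are not tied to a batch by the labels. No difference between the listed and the other genes was tested, and the members of both were chosen with these data known.

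Of 4 genes that report on the stress response, Asns, Trib3 and Ddit3 had larger log2 fold changes than any synthetase, and Atf4 did not. Asns was at 998 and 720 in WT and at 2454 and 1731 in Opa1 KO (log2 fold change 1.28, SE 0.26). Trib3 was at 9.68 and 20.4 against 230.7 and 135.9 (3.56, SE 0.50), and Ddit3 at 462 and 336 against 603 and 564 (0.56, SE 0.21). Atf4 itself was at 4139 and 3001 against 4848 and 3827, with overlapping groups (0.29, SE 0.22). DESeq2 on the same genes called Asns (adjusted p = 0.00749) and Trib3 (adjusted p = 1.73e-05), but neither Ddit3 nor Atf4. By limma-trend none of these 4 genes was called. Mars and Ddit3 share 68 exon bases on opposite strands, and whether the counting used strand is not stated in what was read here. The synthetase differences, at most 0.43 on the log2 scale, were all smaller than that of Asns.

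ATF4 binds a C/EBP-ATF response element, whose core TGATGNAA was searched on both strands of the RefSeq promoters of the GRCm38.p6 assembly, from 250 bases before the annotated start to 50 after it. The table held promoters of 14 cytosolic and 14 mitochondrial genes, and did not list Cars, Hars, Lars, Nars, Rars, Vars, Wars, Hars2 and Pars2. The core stood in 5 of the 14 cytosolic promoters (35.7%), those of Aars, Gars, Iars, Tars and Yars, in 0 of the 15 mitochondrial promoters (Aars2 has 2) and in 3.97% of all 32851 promoters. All 5 genes belong to the 9 listed ATF4 targets with a promoter in the table, and the log2 fold changes of the 5 ran from 0.15 to 0.43. The 80 bases from 55 before the start to 25 after it are shown for these genes, 5′ to 3′ on the strand of the gene, with the core in capitals, because they place it within 30 bases of the start in every case. In Yars the core reads forward, and in the other 4 genes the capitals are its reverse complement.
Aars, chr8:111033787-111033866, plus strand: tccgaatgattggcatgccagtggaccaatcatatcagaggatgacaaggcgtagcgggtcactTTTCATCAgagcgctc
Gars, chr6:55037946-55038025, plus strand: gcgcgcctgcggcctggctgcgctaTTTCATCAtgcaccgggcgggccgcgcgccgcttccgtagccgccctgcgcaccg
Iars, chr13:49682075-49682154, plus strand: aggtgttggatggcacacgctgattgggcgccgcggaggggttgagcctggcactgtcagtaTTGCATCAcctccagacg
Tars, chr15:11399634-11399713, minus strand: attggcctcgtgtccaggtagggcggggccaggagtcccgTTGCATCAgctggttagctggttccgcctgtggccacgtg
Yars, chr4:129189848-129189927, plus strand: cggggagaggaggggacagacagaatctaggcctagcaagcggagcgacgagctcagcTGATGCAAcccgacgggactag

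Aars held a second core further upstream, from 112 bases before its start, in the window from 130 to 81 bases before it. It has the same letters as the element of Iars and Tars.
Aars upstream, chr8:111033712-111033761, plus strand: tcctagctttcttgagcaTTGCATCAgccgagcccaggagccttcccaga

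The promoters describe letters only, and binding was not measured in these libraries. Genes with the core were not uniformly those with the largest differences: Yars and Aars were at 0.43 and 0.39, Gars at 0.15, and Xpot and Mars, whose promoters did not hold these letters in this window, at 0.42 and 0.35.

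A different grouping follows the multi-synthetase complex, in which several cytosolic enzymes are held together on scaffold proteins. The 8 complex enzymes (Dars, Eprs, Iars, Kars, Lars, Mars, Qars and Rars) had 6 members higher and 2 lower, and their median log2 fold change of 0.15 was close to the 0.10 of the 12 enzymes outside it. Both Opa1 KO libraries lay above both WT libraries in 4 of the 8 and in 2 of the 12, and below in 0 and 1. Over all genes tested these shares were 15.2% and 15.7%, and no difference between the 8 and the 12 was tested. Within the complex, the 4 listed ATF4 targets were all higher (median 0.32) and the 4 others were divided, 2 higher and 2 lower (median -0.02). The scaffold genes were each lower on average with overlapping groups. Aimp1 was at 701 and 615 in WT and 644 and 568 in Opa1 KO, Aimp2 at 514 and 410 against 465 and 338, and Eef1e1 at 1112 and 719 against 864 and 700. Split by catalytic fold, the 9 class I cytosolic enzymes had a median of 0.31 and the 10 class II enzymes 0.06, leaving out Eprs, which holds both.

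The mitochondrial genes showed differences of either direction, none larger than 0.27 on the log2 scale, and each 95% interval included 0. Fars2, the phenylalanine enzyme, was at 1102 and 1083 in WT and at 1257 and 1261 in Opa1 KO (log2 fold change 0.20, SE 0.12). Wars2, the tryptophan enzyme, was at 320 and 313 against 377 and 370 (0.24, SE 0.16), and Aars2, the alanine enzyme, at 392 and 364 against 432 and 415 (0.16, SE 0.16). These 3 were the mitochondrial genes in which both Opa1 KO libraries were above both WT libraries. The 3 in which both were below were Cars2, the cysteine enzyme, at 487 and 466 against 433 and 387 (-0.22, SE 0.16), Rars2, the arginine enzyme, at 920 and 854 against 811 and 754 (-0.18, SE 0.13), and Ears2, the glutamate enzyme, at 409.7 and 408 against 380 and 358 (-0.15, SE 0.15). Tars2, the threonine enzyme, was at 1048 and 862 against 1141 and 1003 (0.17, SE 0.16). Iars2, the isoleucine enzyme, was at 1108 and 1555 against 1472 and 1454 (0.16, SE 0.20), its WT libraries differed by more than the groups, and without WT replicate 1 the log2 fold change was -0.09. The unadjusted p of these 8 genes ran from 0.147 for Fars2 to 0.472 for Iars2 by limma-trend. The other 8 lay between -0.15 for Sars2 and 0.27 for Pars2, the proline enzyme, whose WT libraries stood at 178 and 346. By class, 3 of 9 class I mitochondrial enzymes were higher (median -0.06) and 6 of 7 class II enzymes were higher (median 0.16).

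Lars2, the mitochondrial leucine enzyme, stood apart in level. It was at 216903 and 201447 in WT and at 219781 and 181922 in Opa1 KO (log2 fold change -0.06, SE 0.18), which made it the highest of all 55421 identifiers in every library. It took 0.853% to 1.01% of all assigned reads and was 125-fold to 178-fold above the next mitochondrial synthetase. The longest coding transcript of Lars2 had no other gene's transcript matching it over 200 bases at 95% identity. That transcript has 3894 bases, while the exons of Lars2 span 11089. The other exon bases and shorter matches were not searched, so shared sequence there would have been missed. Where along the gene the reads lie cannot be seen in a table of gene totals, so the origin of this level was not tested. Without Lars2 the mitochondrial median log2 fold change was 0.06.

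To compare levels between genes, values were divided by the length of the longest coding transcript. Per kilobase, the median level of the cytosolic genes was 878 and 759 in WT and 905 and 809 in Opa1 KO, and that of the mitochondrial genes without Lars2 was 200.2 and 173 against 186 and 148. The cytosolic median was therefore 4.38-fold to 5.46-fold higher in each library. The highest cytosolic levels per kilobase, as means over the 4 libraries, were those of Nars (1954), Dars (1760), Gars (1588) and Eprs (1412), the asparagine, aspartate, glycine and glutamate-proline enzymes, and the lowest were Xpot (442) and Qars, the glutamine enzyme (377). After Lars2 the highest mitochondrial level was that of Fars2 (553) and the lowest that of Mars2, the methionine enzyme (66.5). Transcript lengths are annotated and were not measured, and Mars2 has the longest, at 11294 bases.

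**Figure D3:**
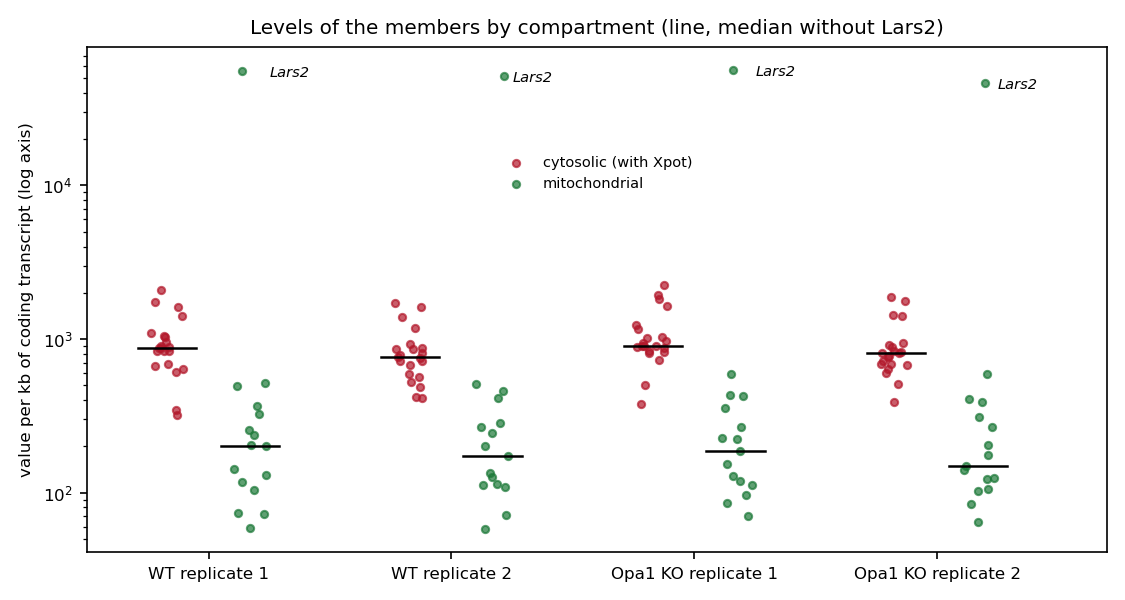
Value per kilobase of the longest coding transcript, on a log axis, for each member in each library, with cytosolic genes and Xpot in red and mitochondrial genes in green; black lines are medians, without Lars2 for the mitochondrial genes. In each library the cytosolic median is 4.38-fold to 5.46-fold the mitochondrial one, and Lars2 lies far above both.

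For 16 mitochondrial genes a cytosolic enzyme charges the same amino acid, and the ratio of the pair was taken within each library. This log2 ratio was higher in Opa1 KO for 12 pairs and lower for 4, with a median difference of 0.11. In 5 pairs both Opa1 KO libraries were above both WT libraries, in 2 both were below, and in 9 they overlapped. The share of other gene pairs that separate in this way was not computed, so these counts have no reference beside them. The largest difference was that of the cysteine pair, Cars over Cars2, at 2.07 and 2.04 in WT and 2.72 and 2.66 in Opa1 KO, where the cytosolic gene was higher and the mitochondrial gene lower. The tyrosine pair was at 2.67 and 2.47 against 3.06 and 2.93, and the leucine pair at -6.48 and -6.48 against -6.08 and -6.08, negative because of the level of Lars2. The glutamate pair, Eprs over Ears2, was at 4.08 and 3.82 against 4.41 and 4.27, and the methionine pair at 1.65 and 1.79 against 2.12 and 1.93. In the opposite direction lay the tryptophan pair, Wars over Wars2, at 2.88 and 2.95 against 2.60 and 2.56, and the phenylalanine pair, Farsa over Fars2, at 0.57 and 0.45 against 0.34 and 0.07. The median ratio over the pairs was 2.37 and 2.22 in WT against 2.66 and 2.52 in Opa1 KO. Different pairs stood in the middle of the ranking in each library. These medians therefore do not measure how a typical pair changed, for which the median difference of 0.11 above is the value to read. No p is given for the pair ratios, since they are scores over chosen genes, and Eprs serves in 2 pairs.

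**Figure D4:**
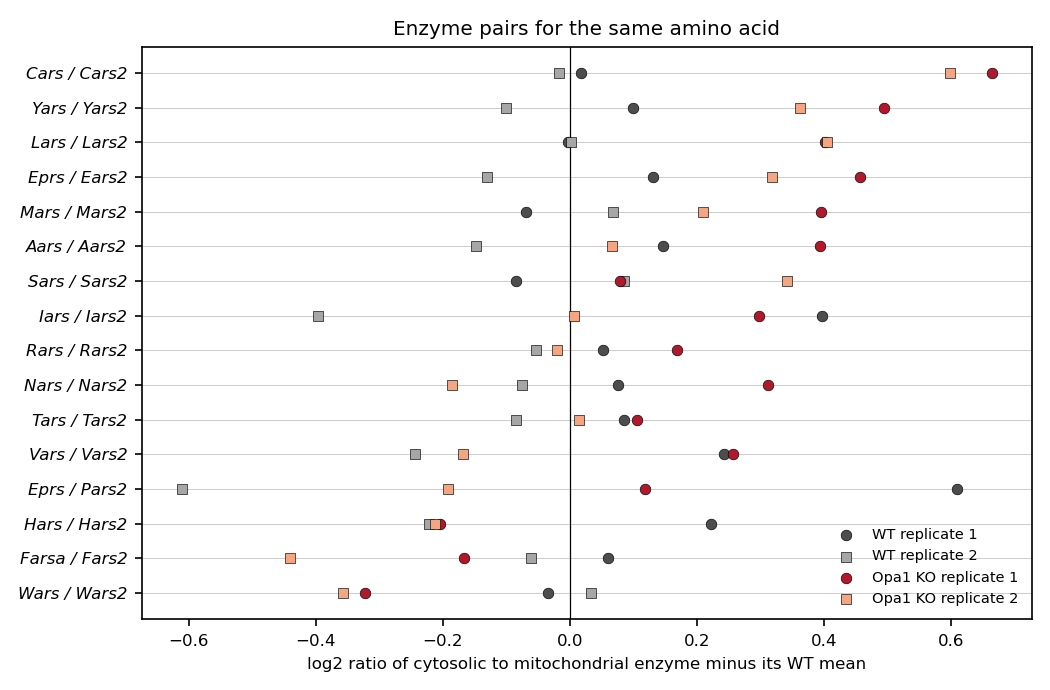
Log2 ratio of the cytosolic to the mitochondrial enzyme for the same amino acid in each library, minus the mean ratio of the WT libraries; circles are replicate 1, squares replicate 2, grey WT and red Opa1 KO. The 5 pairs whose Opa1 KO libraries both lie above WT are those for cysteine, tyrosine, leucine, glutamate and methionine, and the 2 below are those for phenylalanine and tryptophan.

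The replicates of a group differed by more than the groups did in the median cytosolic gene, whose log2 difference between genotypes was 0.15. In WT, 18 of the 21 cytosolic genes were higher in replicate 1 than in replicate 2, by a median of 0.23 on the log2 scale, and in Opa1 KO 19 of 21 were, by a median of 0.27. Of the 21, 18 were higher in replicate 1 in both genotypes, against 38.8% of all genes tested, and 10 of the 16 mitochondrial genes were. Cycling markers were also higher in replicate 1, by medians of 0.67 in WT and 0.83 in Opa1 KO, and microglia markers by larger medians of 2.90 and 1.84. Oligodendrocyte markers were higher in replicate 1 by a median of 1.03 in WT and of 0.19 in Opa1 KO. All 5 ependymal markers were lower in replicate 1, by 2.70 and 1.84. Between the genotypes the cycling markers went the other way from the cytosolic synthetases, with all 5 lower in Opa1 KO (median -0.36) and overlapping groups. The part of these markers in the synthetase differences was not tested.

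Other genes of tRNA charging and translation were set beside the synthetases, and none of them was called. Of 12 further charging and maturation genes, 4 were higher and 8 lower (median -0.06). Pstk, which prepares the selenocysteine tRNA, was at 221 and 227 in WT and 291 and 306 in Opa1 KO (log2 fold change 0.41, SE 0.18). Gatc, a subunit of the mitochondrial enzyme that makes glutaminyl-tRNA, was at 1857 and 1542 against 1537 and 1359 (-0.23, SE 0.16). Of 10 mitochondrial translation factors, 3 were higher and 7 lower (median -0.11). Guf1 had the smallest unadjusted p of this list by limma-trend (0.142) and was higher, at 2721 and 2529 against 3163 and 2932 (0.22, SE 0.12). It was the only 1 of the 10 whose groups did not overlap, where 15.2% of all genes tested were above in this way. Tufm, the mitochondrial elongation factor Tu, was lower with overlapping groups, at 1949 and 1626 against 1644 and 1397. The 5 cytosolic elongation factors had a median of -0.02. Of 3 genes of uncharged tRNA sensing, Eif2ak4, which encodes the kinase GCN2, was at 511 and 544 against 643 and 617 (0.26, SE 0.14), with groups that did not overlap. Its activator Gcn1l1 was at 3269 and 2900 against 2977 and 2474, and its inhibitor Impact at 2195 and 2374 against 2292 and 2959.

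Some members share sequence with other genes, which limits how firmly their reads can be assigned. Of the 37, 13 overlap exons of another gene and 2 have a near-identical pseudogene. The largest overlaps were that of Iars2 with Rab3gap2 on the opposite strand (2034 bases, 22.9% of its exon length) and that of Aars with Exosc6 on the same strand (1326 bases, 14.3%). Hars and Hars2 lie head to head and share 195 exon bases. The pseudogene of Xpot, Gm7389, is 96.2% identical over 2525 bases and was at 1.94 to 12.4, and that of Iars, Gm4849, was at 0 in each library. Leaving out the 9 members with at least 5% shared exon length or a pseudogene gave a cytosolic median of 0.11 and a mitochondrial median of 0.05.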

How the data were processed

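Bulk RNA-seq of 2 WT and 2 Opa1 KO libraries was analysed. HISAT2, SAMtools, featureCounts and DESeq2 are the tools, and mm10 the build, in the submitters' processing notes, which state no versions. The annotation, library preparation kit and strandedness were not given in the sources used here. As deposited by the authors, the table holds a normalised signal for each gene and library, featureCounts reads over the size factor of the library (1.03 and 1.03 in WT, 0.919 and 1.04 in Opa1 KO). Multiplying the values by these size factors, before rounding, gave whole reads for 100% of values within a tolerance of 1e-06. The table also holds the authors' own fold changes and p-values, which were not used, and 12 further per-sample columns that repeat some genes were left out. Columns were matched to samples by the submitters' descriptions, and groups and replicate numbers were taken from the titles. The 2 numberings differ: each group's libraries are numbered 2 and 4 in the descriptions and columns, and 1 and 2 in the titles, so the column numbered 2 is replicate 1 here.

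Symbols and coordinates came from GENCODE M21 (55240 of 55421 identifiers matched). Genes at 10 or above in 2 or more libraries were tested with limma-trend (limma 3.58.1, R 4.3.3) with robust moderation on log2(value + 1), two-sided, with Benjamini-Hochberg adjustment over all 18547 genes and a threshold of 0.05. Differences of genes with low values come out too small on this scale. Alternatives on the recovered reads were edgeR 4.0.16 and DESeq2 1.42.0, and the fits were tested on simulated data. Replicates differed by far more than sampling noise, so each counted as 1 sample. Gene lists were described by medians and counts, with no set test. Full values were given for the 10 cytosolic and 8 mitochondrial members with the smallest p, for Xpot, Gars, Kars and Eprs, for up to 4 genes of each further list and for the stress genes. Wars, Dars, Pars2, Lars2 and the overlapping genes were named after their values were seen. The members and lists were chosen with earlier results of these data known, and 1 gene of a further list is not reported here. Exon overlaps came from the same annotation. Near-identical transcripts came from a BLAST search of each member's longest coding transcript against its transcripts (at least 95% identity over at least 200 bases). Of the 29 member promoters, 25 matched a transcript of their gene on the printed strand and 0 on the other.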

Additional observations from a re-analysis of the deposited data

How the results depend on the processing

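In each of the alternatives run, 0 cytosolic and 0 mitochondrial members were called. Counts over all genes moved from 0 higher and 0 lower to 48 and 16 with DESeq2 on the same genes, to 149 and 65 with DESeq2 on all genes, and to 1 and 1 with no filter; the cause was not tested. TMM scaling moved the median of all genes by 0.01 and library size alone by 0.05 on the log2 scale; 14 and 16 cytosolic members were then higher in Opa1 KO. The cytosolic median lay between 0.11 and 0.20 under every alternative that kept all 4 libraries. Leaving out 1 library at a time, which leaves a lone sample assumed to vary like the other group, gave 0 calls as the full fit did, a mitochondrial median from -0.0085 to 0.14, a cytosolic minus mitochondrial difference from 0.023 to 0.25, a median of the enzymes not listed as ATF4 targets from -0.22 to 0.040, and log2 fold changes from -0.068 to 0.37 for Gars and from -0.087 to 0.40 for Iars2. In the fits with a block for the replicate number, limma-trend called 123 genes higher and 59 lower and DESeq2 142 and 58. Under this block no member was called. The smallest adjusted p of a member was 0.0625 with limma-trend (Aars) and 0.131 with DESeq2 (Yars). With limma-trend 10 cytosolic and 0 mitochondrial members were under 0.05 unadjusted, and 1 of the 10 was lower in Opa1 KO. All genes gave 8.64% higher and 8.49% lower with limma-trend. With DESeq2 7 cytosolic and 0 mitochondrial members were under 0.05 unadjusted, 0 of them lower, where all genes gave 3.82% higher and 2.81% lower. Same-numbered libraries deviated together (r = 0.718 across genes). With 2 libraries per group the 2 pairs give the same r by construction, so this is only 1 comparison. The labels tie the numbers to no batch, so what the same-numbered libraries have in common is not known. Even Opa1 missed the adjusted threshold by limma-trend, and a member that was not called is not shown to be unchanged.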
